A study of Mus musculus with 15 samples.

Results

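The 9 genes of one-carbon and S-adenosylmethionine (SAM) metabolism described here were followed in the mouse hemibrain across 3 diets that differed in polyunsaturated fatty acids (PUFA). The genes were Mat2a, Mat2b, Mtr, Shmt1, Shmt2, Ahcy, Ahcyl1, Ahcyl2 and Cbs. They were chosen by name, and every probe whose RefSeq identifier maps to one of these symbols was used. This gave 9 genes of 20972 with a symbol on the array, and 15 probes. Of these, 11 probes of 7 genes passed the filter on dim spots and were tested. The 4 probes of Shmt1 and Ahcy did not pass and are given as values only.

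The samples were left hemibrains of male C57BL/6j mice kept for 24 weeks, from 3 weeks of age, on diets of equal caloric content. The enriched diet (ERD) had an n-3 to n-6 ratio of 7 to 1, the balanced diet (BLD) of 1 to 1 and the standard diet (STD) of 1 to 6. No genetic change or drug is named for any group, and the sample titles carry the word control in all 3. Each diet had 5 arrays, with a hemibrain in Cy5 and a common reference RNA of 11 mouse cell lines in Cy3. The labels do not state outright that the 5 arrays of a diet are 5 animals, so p-values measure the spread between these arrays. A value here is the log2 ratio of hemibrain over reference, and diets are compared through that reference. All arrays had the same dye orientation, so a dye effect is shared by them and was not estimated.

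SAM is the main donor of methyl groups in cells. Methionine adenosyltransferase makes it from methionine and ATP, methyltransferases use it for DNA, histones, RNA, neurotransmitters and phospholipids, and they leave S-adenosylhomocysteine. S-adenosylhomocysteine is hydrolysed to homocysteine, which is either methylated back to methionine with a methyl group from the folate cycle or passed to cysteine through transsulfuration. In brain the remethylation runs mainly through the cobalamin-dependent methionine synthase, because the betaine pathway belongs chiefly to liver and kidney.

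Arrays differed in how many spots were well above background in Cy5, from 17720 (ERD 1) to 31991 (BLD 4). The means were 24692 ± 4193 in ERD, 27945 ± 3535 in BLD and 26949 ± 1612 in STD (SD, n = 5). ERD 1, BLD 3 and ERD 4 correlated least with the other arrays. The arrays lay on 8 slides and were scanned on 2 days, the later day holding 3 BLD arrays, 1 ERD array and 0 STD arrays. Among markers of the tissue, 9 of 10 neuron genes and 7 of 10 astrocyte genes were well above background in Cy5 on all 15 arrays. Of 7 cell type lists, 0 markers passed the test in any comparison.

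In these hemibrains 0 of the 11 member probes passed the test in any of the 3 comparisons or in the F test over the diets. The test was limma's moderated test on all 15 arrays, with Benjamini-Hochberg adjustment over 26338 probes and a threshold of 0.05. The background was low in each comparison: 44 probes in ERD against STD (0.167%; 19 higher and 25 lower), 2 in BLD against STD (0.00759%), 0 in ERD against BLD (0%) and 12 in the F test (0.0456%). At an unadjusted p under 0.05, 2 of 11 member probes passed in ERD against STD, beside 14.4% of all probes. The same count was 1 of 11 in BLD against STD, beside 10.2%, and 2 of 11 in ERD against BLD, beside 10.6%. In the F test it was 2 of 11, beside 13.3%. For 0 member probes did the arrays of 2 diets lie apart without overlap, a pattern that 3.75%, 2.76% and 1.4% of all probes had in ERD against STD, BLD against STD and ERD against BLD. ERD against STD and BLD against STD share the STD arrays, and ERD against BLD shares arrays with both.

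The median log2 change of the 11 member probes was -0.05 in ERD against STD, 0.21 in BLD against STD and -0.15 in ERD against BLD. Over all probes tested it was 0.01, 0.05 and -0.04. In ERD against STD 5 member probes were higher and 6 lower, in BLD against STD 9 higher and 2 lower, and in ERD against BLD 2 higher and 9 lower. All probes leaned the same way in the last 2 comparisons: 51.4%, 59.3% and 41.4% of them were higher, in that order. The median size of a member's change was 0.17, 0.23 and 0.15, beside 0.16, 0.14 and 0.14 over all probes. The number of arrays limits the precision: a change between diets had a standard error of 0.163 at the median probe.

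**Figure D1:**
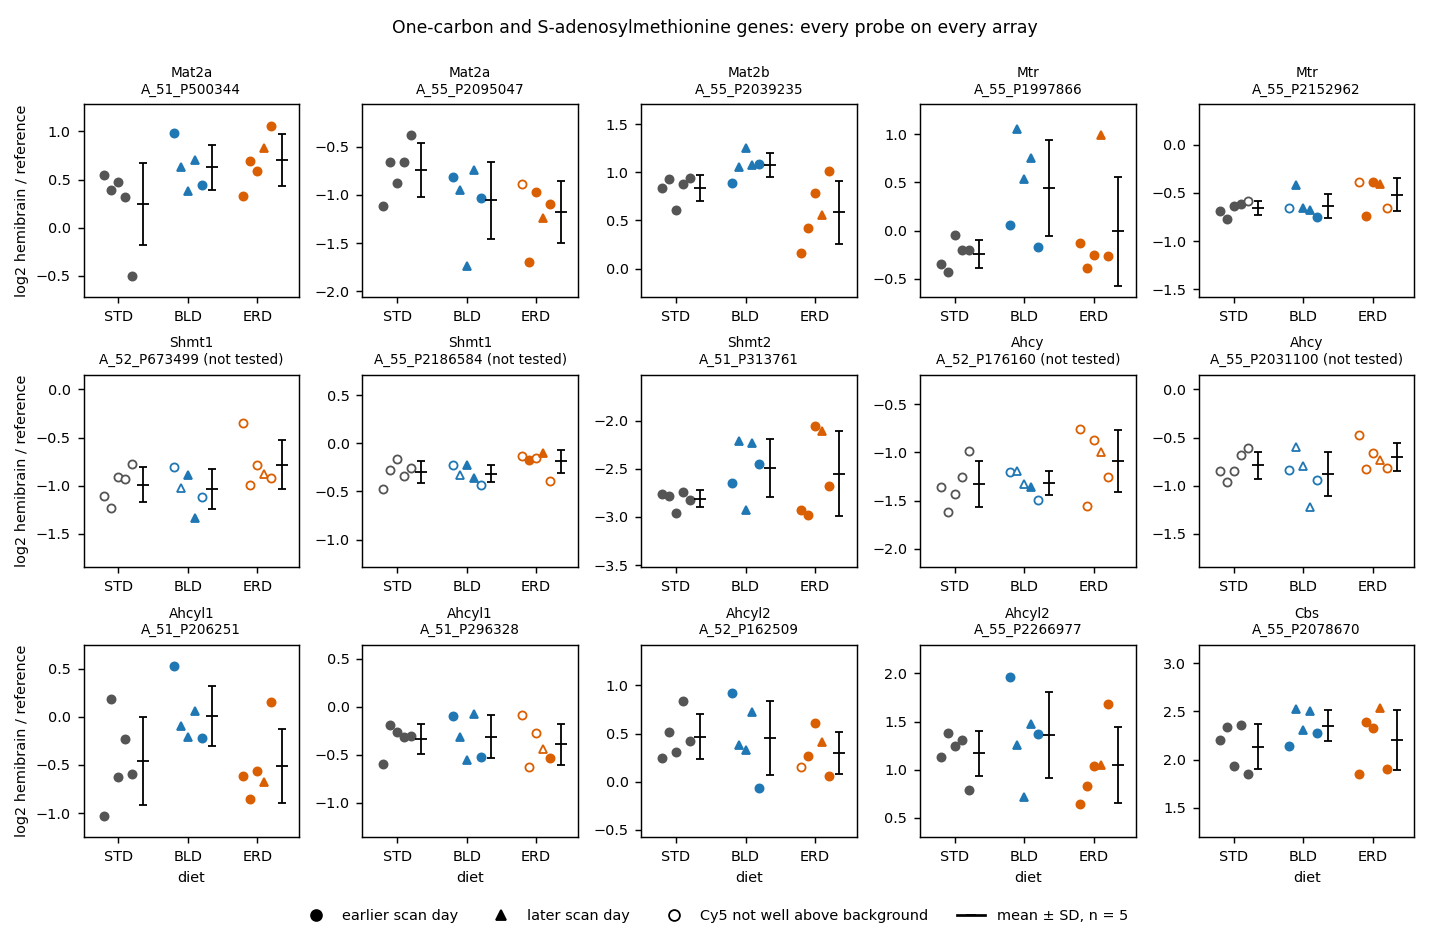
Log2 ratio of hemibrain over reference (y axis) of all 15 member probes on each array, by diet (x axis), with the mean ± SD of 5 arrays beside the points; triangles mark the later scan day and open symbols a Cy5 signal not well above background. The diets overlap for each probe, and the 4 probes of Shmt1 and Ahcy are mostly open symbols.

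Mat2a encodes the catalytic subunit of the methionine adenosyltransferase of brain and most other tissues outside the liver. Its first probe, A_51_P500344, had log2 ratios of 0.33, 0.69, 0.59, 0.83 and 1.06 on ERD arrays 1 to 5. They were 0.98, 0.63, 0.38, 0.70 and 0.44 on BLD and 0.55, 0.39, 0.47, 0.32 and -0.50 on STD. STD 5 stood below all other arrays, and the remaining STD arrays, at 0.32 to 0.55, lay among the lower ERD and BLD values. The means were 0.70 ± 0.27 in ERD, 0.63 ± 0.24 in BLD and 0.25 ± 0.43 in STD (SD, n = 5). ERD exceeded STD by 0.45 ± 0.19 (SE, 95% interval 0.04 to 0.86, unadjusted p = 0.0329), which did not pass after adjustment (adjusted p = 0.304). Without STD 5 the change was 0.27 (adjusted p = 0.461), and with slide as a block it was 0.29 (adjusted p = 0.702). Within the 3 slides that held both diets it was 0.30, 0.04 and 0.74. BLD against STD was 0.38 (-0.03 to 0.79, adjusted p = 0.502) and ERD against BLD was 0.07 (-0.34 to 0.48, adjusted p = 0.924).

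The second Mat2a probe, A_55_P2095047, had log2 ratios of -0.89, -1.70, -0.97, -1.24 and -1.09 on ERD arrays 1 to 5. They were -0.81, -0.95, -1.74, -0.74 and -1.03 on BLD and -1.12, -0.66, -0.88, -0.66 and -0.38 on STD. Here STD 5 was the highest array, and ERD 2 and BLD 3 were the lowest. Cy5 was well above background on 4 ERD, 5 BLD and 5 STD arrays. This probe was much dimmer than the first: its log2 Cy5 signal ran from 7.13 to 8.42, beside 11.46 to 13.1. ERD against STD was -0.44 ± 0.20 (SE, 95% interval -0.87 to -0.02, unadjusted p = 0.0426, adjusted p = 0.329), so this probe differed in the opposite direction to the first one and, like it, did not pass. The size depended on the processing: the change was -1.47 on the deposited log ratios (adjusted p = 0.0858). Lowering the normexp offset to 1 gave -1.12 (adjusted p = 0.125). Within the 3 slides that held both diets the change was -1.04, 0.15 and -0.44, so 1 slide had the other sign. BLD against STD was -0.32 (-0.74 to 0.11, adjusted p = 0.578) and ERD against BLD was -0.13 (-0.55 to 0.30, adjusted p = 0.858).

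Both Mat2a probes therefore gave differences of opposite sign for 1 gene symbol, and across the 15 arrays their log2 ratios had a Pearson r of -0.417. The other member genes with 2 probes had r of 0.421 (Mtr), 0.598 (Shmt1), 0.715 (Ahcy), 0.43 (Ahcyl1) and 0.356 (Ahcyl2). These are descriptions over arrays that also share depth and slides. The first probe minus the second was 1.22, 2.39, 1.56, 2.07 and 2.15 on ERD arrays 1 to 5. It was 1.79, 1.59, 2.12, 1.44 and 1.47 on BLD and 1.67, 1.05, 1.35, 0.97 and -0.13 on STD. The 3 lowest values were of STD arrays, while STD 1 and STD 3 lay within the ERD range. The gap between probes was 1.88 ± 0.48 in ERD, 1.68 ± 0.28 in BLD and 0.98 ± 0.68 in STD (SD, n = 5).

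This gap was compared after the values had been seen, with 2-sided exact permutation tests over arrays for the 4 genes with 2 tested probes, 12 tests in all. For Mat2a, ERD exceeded STD by 0.90 (exact permutation p = 0.0397, adjusted p = 0.159 over the 12 tests), where the smallest p that 5 against 5 arrays allow is 0.00794. BLD exceeded STD by 0.70 with the same exact p and adjusted p. ERD against BLD was 0.20 (exact permutation p = 0.413, adjusted p = 0.619). Without STD 5, ERD against STD was 0.62 and BLD against STD 0.42, and with Cy5 alone ERD against STD was 0.93 (adjusted p = 0.0476). On the deposited log ratios ERD against STD was 1.89 and with a normexp offset of 1 it was 1.58 (both exact permutation p = 0.00794, adjusted p = 0.0952). Of the 12 tests 0 passed after adjustment and 3 had an unadjusted p under 0.05, the third being that of Mtr in BLD against STD (0.68, exact permutation p = 0.0159, adjusted p = 0.159). Which transcripts each probe reads was not tested, since the probe sequences were not used here. The part of the unlike brightness of both Mat2a probes in their gap was not tested either.

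**Figure D2:**
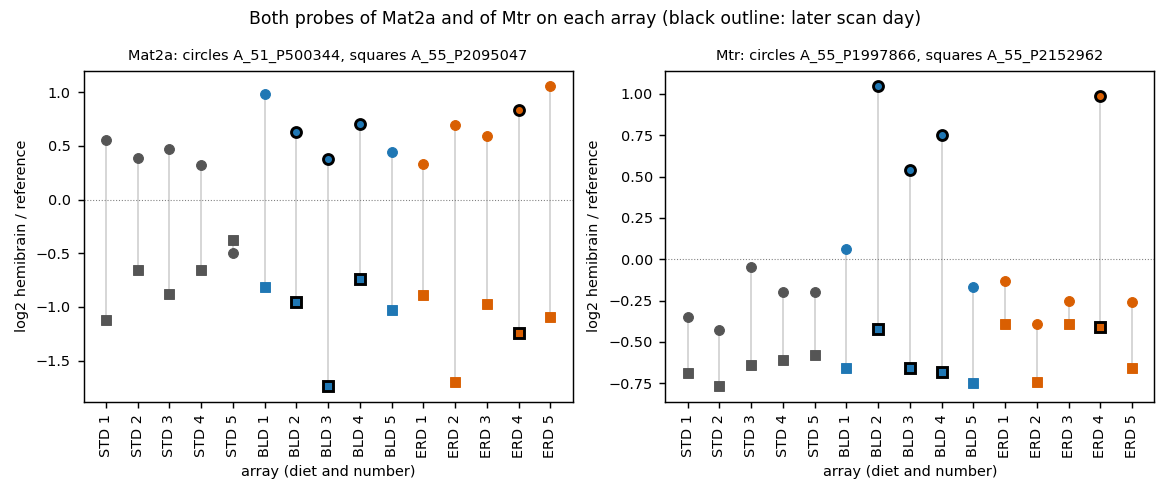
Log2 ratio of hemibrain over reference (y axis) of both probes of Mat2a (left) and of Mtr (right) on each of the 15 arrays (x axis), coloured by diet, with a grey line joining both probes of an array and black outlines for the later scan day. The Mat2a probes nearly meet on STD 5, with a difference of -0.13, and the Mtr probe drawn as circles is highest on the 4 outlined arrays, at 0.54 to 1.05.

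Mat2b encodes the regulatory subunit that binds the Mat2a product and alters its kinetics. Its probe, A_55_P2039235, had log2 ratios of 0.16, 0.42, 0.78, 0.56 and 1.01 on ERD arrays 1 to 5. They were 0.89, 1.06, 1.25, 1.08 and 1.09 on BLD and 0.84, 0.93, 0.61, 0.88 and 0.94 on STD. ERD arrays were spread most widely and held the 3 lowest values, but ERD 5 lay among the BLD arrays. The means were 0.59 ± 0.33 in ERD, 1.07 ± 0.13 in BLD and 0.84 ± 0.14 in STD (SD, n = 5). ERD was 1.40-fold lower than BLD, a log2 change of -0.49 ± 0.14 (SE, 95% interval -0.79 to -0.19). This was the lowest unadjusted p among the members in the 3 comparisons, 0.00343, and it did not pass after adjustment (adjusted p = 0.31). Without ERD 5 the change was -0.59 (adjusted p = 0.0902), and without ERD 1, BLD 3 and ERD 4 it was -0.29 (adjusted p = 0.767). Within the 3 slides that held both diets it was -0.60, -0.73 and -0.08. ERD against STD was -0.25 (-0.55 to 0.05, adjusted p = 0.42) and BLD against STD was 0.23 (-0.07 to 0.53, adjusted p = 0.56).

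Mtr encodes methionine synthase, the cobalamin-dependent enzyme that moves a methyl group from folate to homocysteine. Its first probe, A_55_P1997866, had log2 ratios of -0.13, -0.39, -0.25, 0.99 and -0.26 on ERD arrays 1 to 5. They were 0.06, 1.05, 0.54, 0.75 and -0.17 on BLD and -0.35, -0.43, -0.05, -0.20 and -0.20 on STD. The 4 arrays well above 0 were ERD 4, BLD 2, BLD 3 and BLD 4, which are the 4 arrays of the later scan day. The values of that day ran from 0.54 to 1.05 and those of the earlier day from -0.43 to 0.06, with no overlap (n = 4 and 11). In a limma fit with diet and scan day, the later day was higher by 1.00 ± 0.14 (SE, adjusted p = 0.00242). Such a difference passed for 1 of 11 member probes and for 1014 of 26338 probes (3.85%). The scan day is the time of reading and says nothing of how or when the RNA was prepared. The 4 arrays of the later day lay on slides 1 and 2, which held no array of the earlier day. Scan day and these slides therefore cannot be told apart.

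For this Mtr probe BLD exceeded STD by 0.70 ± 0.26 (SE, 95% interval 0.15 to 1.24, unadjusted p = 0.0158, adjusted p = 0.443). With scan day as a block the change was 0.10 (adjusted p = 0.999), and with slide as a block 0.04 (adjusted p = 0.986). Among arrays of the earlier day it was 0.20, with 2 BLD arrays against 5 STD arrays, and in the 1 slide that held both diets it was 0.04. The later day held 0 STD arrays, so no such value could be had there. ERD against STD was 0.24 (-0.31 to 0.79, adjusted p = 0.688) and -0.01 within the earlier day, and ERD against BLD was -0.46 (-1.0 to 0.09, adjusted p = 0.546). The last was -0.06 after blocking on scan day (adjusted p = 0.905) and -0.21 within the earlier day.

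The second Mtr probe, A_55_P2152962, was dimmer, with Cy5 well above background on 3 ERD, 4 BLD and 4 STD arrays. Its log2 ratios were -0.39, -0.74, -0.39, -0.41 and -0.66 on ERD arrays 1 to 5, -0.66, -0.42, -0.66, -0.68 and -0.75 on BLD, and -0.69, -0.77, -0.64, -0.61 and -0.58 on STD. The 3 highest ERD arrays lay above all STD arrays and the other ERD arrays among them. The later scan day was higher by 0.13 ± 0.11 (SE, adjusted p = 0.776), so the shift of the first probe was not called in the second. ERD against STD was 0.14 (-0.08 to 0.35, adjusted p = 0.543), BLD against STD 0.02 (-0.19 to 0.24, adjusted p = 0.961) and ERD against BLD 0.12 (-0.10 to 0.33, adjusted p = 0.709). The direction of ERD against STD turned with the processing, to -0.38 on the deposited log ratios.

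Serine hydroxymethyltransferase loads one-carbon units from serine onto folate, in the mitochondrion through Shmt2 and in the cytosol through Shmt1. The Shmt2 probe, A_51_P313761, had log2 ratios of -2.93, -2.98, -2.06, -2.11 and -2.68 on ERD arrays 1 to 5. They were -2.65, -2.21, -2.93, -2.23 and -2.45 on BLD and -2.76, -2.78, -2.96, -2.74 and -2.82 on STD. STD arrays lay close together, whereas 3 ERD arrays and 4 BLD arrays lay above all of them. The reference was on average 6.14-fold above the hemibrain at this probe. ERD against STD was 0.26 (-0.14 to 0.66, adjusted p = 0.539), BLD against STD 0.32 (-0.08 to 0.72, adjusted p = 0.549) and ERD against BLD -0.06 (-0.46 to 0.34, adjusted p = 0.938).

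Shmt1 had 2 probes that were rarely above background in Cy5. A_52_P673499 was well above it on 0 ERD, 2 BLD and 0 STD arrays, with mean log2 ratios of -0.78 ± 0.26, -1.03 ± 0.21 and -0.99 ± 0.18 (SD, n = 5). Single arrays of A_52_P673499 ran from -0.99 to -0.35 in ERD, -1.34 to -0.81 in BLD and -1.23 to -0.77 in STD, so the diets overlapped. A_55_P2186584 was above it on 2 ERD, 2 BLD and 0 STD arrays, with means of -0.19 ± 0.11, -0.31 ± 0.09 and -0.30 ± 0.12. Because most hemibrain signals were not measured above background, no fold between diets is given. Over all arrays the reference was on average at least 1.91-fold above the hemibrain at the first probe and at least 1.20-fold at the second. These are lower bounds, because dim Cy5 signals entered them with the normexp offset added, which shrinks such folds. The deposited log10 ratios of Cy5 over Cy3 ran from -1.622 to -0.711 at the first probe. At the second they ran from -1.148 to -0.232. The reference channel was well above background on 15 arrays at the first probe and on 14 at the second.

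Ahcy encodes the hydrolase that clears S-adenosylhomocysteine, which otherwise inhibits methyltransferases. Its probe A_52_P176160 was well above background in Cy5 on 1 array, a BLD array, and A_55_P2031100 on 0 arrays, while the reference channel was above background on all 15 for both. The mean log2 ratios of A_52_P176160 were -1.09 ± 0.32 in ERD, -1.31 ± 0.12 in BLD and -1.33 ± 0.24 in STD (SD, n = 5). Its single arrays ran from -1.56 to -0.76, -1.49 to -1.19 and -1.62 to -0.98 in the same order, with overlap of all 3 diets. The means of A_55_P2031100 were -0.70 ± 0.15, -0.88 ± 0.23 and -0.79 ± 0.14. The reference was on average at least 2.37-fold above the hemibrain at the first probe and at least 1.73-fold at the second. These too are lower bounds, because dim Cy5 signals entered them with the normexp offset added. The deposited log10 ratios of Cy5 over Cy3 ran from -1.737 to -0.88 at the first probe. At the second they ran from -1.384 to -0.839. No fold between diets is given for Ahcy, since its hemibrain signal was not well above background on nearly all arrays.

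Ahcyl1, also known as IRBIT, encodes a relative of Ahcy that binds the inositol trisphosphate receptor and regulates ion transporters. Its first probe, A_51_P206251, had log2 ratios of -0.62, -0.85, -0.56, -0.68 and 0.15 on ERD arrays 1 to 5. They were 0.53, -0.10, -0.21, 0.06 and -0.22 on BLD and -1.03, 0.18, -0.63, -0.23 and -0.59 on STD. Among ERD arrays 4 lay below all BLD arrays, and ERD 5 lay within the BLD range. ERD against BLD was -0.52 ± 0.23 (SE, 95% interval -1.01 to -0.04, unadjusted p = 0.0353, adjusted p = 0.451). Leaving out single arrays moved it from -0.69 (without ERD 5) to -0.40 (without BLD 1), and within the 3 slides that held both diets it was -0.52, -1.15 and 0.37. BLD against STD was 0.47 (-0.01 to 0.96, adjusted p = 0.491) and ERD against STD was -0.05 (-0.53 to 0.43, adjusted p = 0.941).

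The second Ahcyl1 probe, A_51_P296328, was measured above background on 1 ERD array and on all 5 BLD and 5 STD arrays. Its log2 ratios were -0.09, -0.63, -0.27, -0.44 and -0.53 on ERD arrays 1 to 5, -0.10, -0.32, -0.55, -0.08 and -0.52 on BLD, and -0.60, -0.19, -0.26, -0.32 and -0.30 on STD. The 3 diets covered nearly the same range. ERD against BLD was -0.08 (-0.36 to 0.21, adjusted p = 0.875), ERD against STD -0.06 (-0.34 to 0.23, adjusted p = 0.873) and BLD against STD 0.02 (-0.27 to 0.30, adjusted p = 0.977). The size of the changes depended on the processing, and Cy5 was measured above background on 1 ERD array. ERD against BLD was -0.47 with a normexp offset of 1 (adjusted p = 0.612) and -1.31 on the deposited log ratios (unadjusted p = 0.00496, adjusted p = 0.304). ERD against STD was -0.47 (adjusted p = 0.424) and -0.86 (adjusted p = 0.235) under the same settings. BLD against STD was -0.01 (adjusted p = 0.996) and 0.46 (adjusted p = 0.658) under them. In the fit with an offset of 50, the gap between both probes differed by -0.45 between ERD and BLD (exact permutation p = 0.0873, adjusted p = 0.175 over the 12 tests).

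Ahcyl2 encodes the closest relative of Ahcyl1. Its probe A_55_P2266977 had log2 ratios of 0.64, 0.83, 1.04, 1.05 and 1.68 on ERD arrays 1 to 5. They were 1.96, 1.26, 0.72, 1.48 and 1.37 on BLD and 1.13, 1.38, 1.25, 1.31 and 0.79 on STD. BLD 1 and ERD 5 were the highest arrays, and the other 4 ERD arrays lay below all STD arrays but STD 5. The hemibrain was on average 2.28-fold above the reference. The log2 changes were -0.13 (-0.59 to 0.33, adjusted p = 0.819) in ERD against STD, 0.18 (-0.28 to 0.64, adjusted p = 0.804) in BLD against STD and -0.31 (-0.77 to 0.15, adjusted p = 0.63) in ERD against BLD. The other probe, A_52_P162509, had 0.15, 0.27, 0.61, 0.41 and 0.06 on ERD, 0.92, 0.38, 0.33, 0.72 and -0.07 on BLD, and 0.25, 0.52, 0.31, 0.84 and 0.42 on STD. BLD held both its highest and its lowest array, and the 3 diets overlapped. Its changes were -0.17 (-0.54 to 0.20), -0.01 (-0.38 to 0.36) and -0.16 (-0.53 to 0.21) in the same order, with adjusted p from 0.674 to 0.99. On the deposited log ratios they were -0.77 (adjusted p = 0.203), -0.38 (adjusted p = 0.656) and -0.39 (adjusted p = 0.62).

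Cbs encodes cystathionine beta-synthase, which commits homocysteine to transsulfuration and is activated by SAM. Its probe, A_55_P2078670, had log2 ratios of 1.85, 2.39, 2.33, 2.54 and 1.90 on ERD arrays 1 to 5. They were 2.14, 2.53, 2.31, 2.50 and 2.28 on BLD and 2.20, 2.34, 1.93, 2.36 and 1.85 on STD. ERD held the highest array and, level with STD 5, the lowest, and the BLD arrays lay between them. The hemibrain was on average 4.69-fold above the reference. The log2 changes were 0.06 (-0.26 to 0.39, adjusted p = 0.875) in ERD against STD, 0.21 (-0.11 to 0.54, adjusted p = 0.636) in BLD against STD and -0.15 (-0.47 to 0.18, adjusted p = 0.763) in ERD against BLD. The interval of BLD against STD reaches 0.54, so these data do not show that the diets are alike for Cbs.

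**Figure D3:**
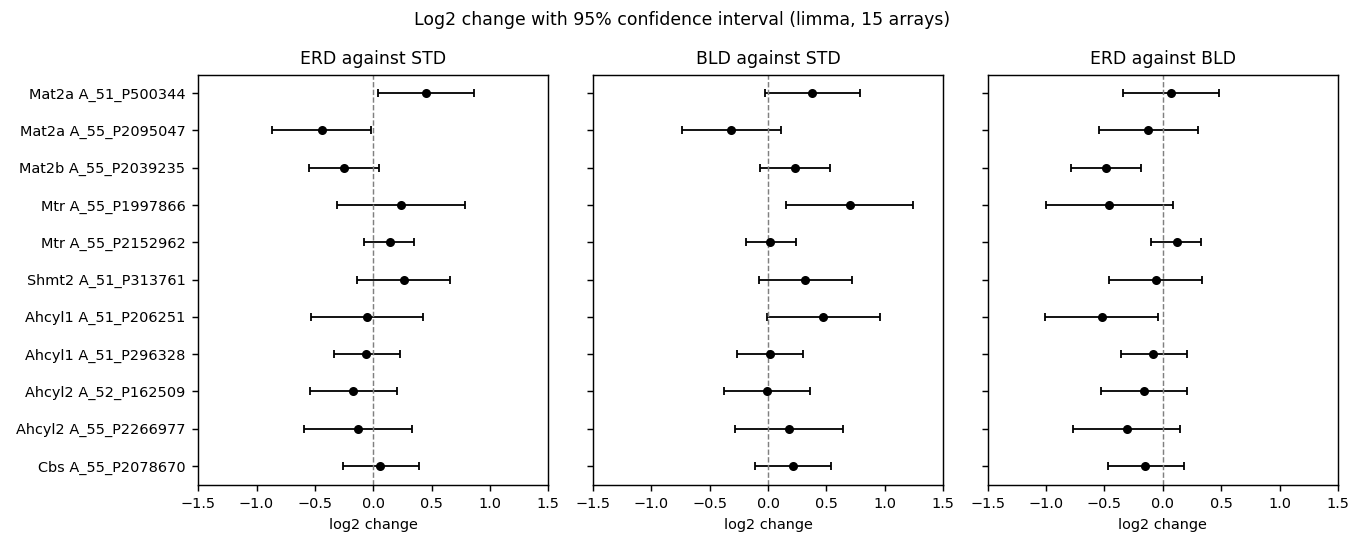
Log2 change (x axis) with its 95% confidence interval for the 11 tested member probes (y axis) in ERD against STD, BLD against STD and ERD against BLD, from the limma fit over 15 arrays. The intervals of Mat2a lie on opposite sides of 0 in ERD against STD (0.04 to 0.86 and -0.87 to -0.02), and that of Mat2b lies below 0 in ERD against BLD (-0.79 to -0.19). Those of Mtr A_55_P1997866 in BLD against STD (0.15 to 1.24) and Ahcyl1 A_51_P206251 in ERD against BLD (-1.01 to -0.04) also exclude 0. None of these changes passed after adjustment.

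Around these genes, 79 further genes of the same pathway were read from 8 lists, of which 78 were on the array and 70 were tested. None of their probes passed the test in any comparison (0 of 98), and 11, 7 and 8 of the 70 genes had an unadjusted p under 0.05 in ERD against STD, BLD against STD and ERD against BLD. These counts stand beside 14.4%, 10.2% and 10.6% of all probes and are near those shares. The median log2 change of the 70 genes was 0.10, 0.02 and 0.01 in that order, beside 0.01, 0.05 and -0.04 over all probes. In the list of the folate cycle and its transport, 14 of 18 genes were higher and 3 lower in ERD against STD. Their median was 0.18, and 51.4% of all probes were higher. Of the 18, 0 passed and 3 had an unadjusted p under 0.05. The share over all probes was not matched to these genes in brightness or in ratio to the reference, so the count is a description. In BLD against STD the folate median was 0.01 and in ERD against BLD 0.14. Genes of serine and glycine metabolism had medians of -0.08, 0.20 and -0.17 over 8 genes.

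The 6 genes of cobalamin supply, which provide the cofactor of Mtr, had medians of -0.09, -0.16 and 0.01. Transsulfuration and cysteine genes, which follow Cbs, had 0.11, 0.01 and -0.01 over 6 genes. The 3 tested genes of betaine, choline and remethylation had 0.06, 0.08 and 0.13, and the 4 of SAM transport and regulation 0.06, 0.11 and -0.10. For the 9 genes of polyamines and methionine salvage the medians were 0.07, 0.08 and -0.01, and for the 16 methyltransferases that use SAM 0.06, 0.00 and -0.08. In each of these 6 lists 0 genes passed in any comparison.

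Prmt5, Dnmt3a, Adi1 and Hnmt were among the pathway genes with the lowest p in the F test, and 0 of them passed. Prmt5, a methyltransferase for symmetric dimethylarginine, had mean log2 ratios of -0.08 ± 0.18 in ERD, 0.09 ± 0.08 in BLD and -0.57 ± 0.19 in STD (SD, n = 5). Its change was 0.66 in BLD against STD (adjusted p = 0.0834), with no overlap between arrays, and 0.49 in ERD against STD (adjusted p = 0.0894). Dnmt3a, a de novo DNA methyltransferase, had means of 0.42 ± 0.52, 1.18 ± 0.14 and 1.41 ± 0.26. Its ERD arrays lay apart from the STD arrays, with a change of -1.0 (adjusted p = 0.0634).

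Adi1, a dioxygenase of the methionine salvage pathway, was at 0.55 ± 0.36 in ERD, 0.80 ± 0.11 in BLD and 0.10 ± 0.23 in STD (SD, n = 5), with a change of 0.70 in BLD against STD (adjusted p = 0.195). Hnmt, which methylates histamine, had a change of -0.79 in ERD against BLD (adjusted p = 0.268). Each of these genes was picked for a low p, so its values are a description.

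**Figure D4:**
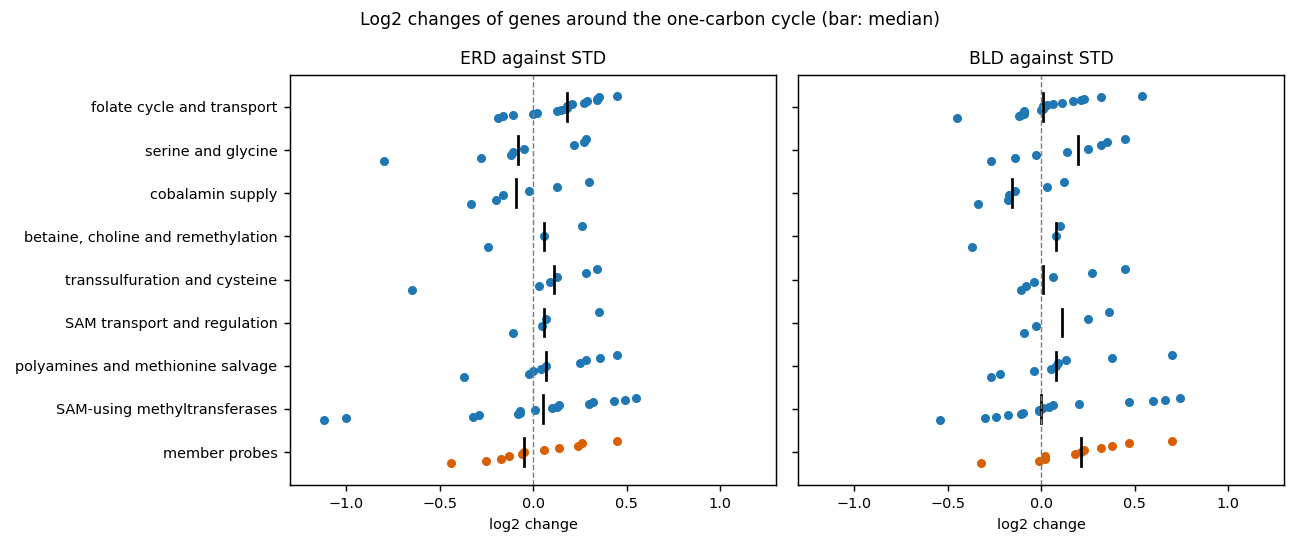
Log2 change (x axis) of the tested genes of 8 pathway lists (blue, 1 point per gene) and of the 11 member probes (orange), with the median of each row as a bar, in 2 panels, ERD against STD and BLD against STD. Folate genes have medians of 0.18 (left) and 0.01 (right), and the member probes of -0.05 and 0.21.

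For each member gene with a tested probe, the 3 most similar genes were taken by Pearson r of the log2 ratio over the 15 arrays, among 13664 genes. Mat2a (A_51_P500344) was most like Gripap1 (r 0.934), Lyrm2 (0.918) and Camk4 (0.902). Mat2b was most like BC031181 (0.899), Napepld (0.897) and Gde1 (0.888). Shmt2 was most like Pgd (0.948), Ctsz (0.898) and Diaph1 (0.896).

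Ahcyl1 (A_51_P206251) was most like Slc38a2 (0.92), Pdcd6 (0.906) and Metap2 (0.888), and Ahcyl2 (A_55_P2266977) like Gnas (0.958), Cnot2 (0.924) and Peli2 (0.916). Cbs was most like Spen (0.897), Tpcn1 (0.892) and Grb2 (0.881). Mtr (A_55_P1997866) was most like Fubp3 (0.943), Tert (0.943) and C3 (0.939). These 3 were chosen for likeness to a probe that splits by scan day, and their later arrays were higher by 0.84, 0.63 and 1.03, which is a description. Among the members themselves the highest r was 0.74, between Ahcyl1 and Ahcyl2, while Mat2a and Mat2b had -0.0262. These correlations share slides, scan day and array depth and carry no test.

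Markers of brain cell types were read on the same arrays. Between ERD and STD the median log2 change of the 10 astrocyte markers was -0.27, of the 10 neuron markers -0.23, of the oligodendrocyte markers -0.18 and of the microglia markers -0.17. It was -0.05 for endothelial markers, -0.10 for choroid plexus markers and 0.04 for the 4 blood markers tested. Between BLD and STD the medians were -0.21 (astrocyte), -0.05 (neuron), 0.02 (oligodendrocyte) and -0.06 (microglia). For endothelial, choroid plexus and blood markers they were 0.12, -0.01 and 0.32. The astrocyte markers were thus lower than in STD at the median in both diets, with -0.03 in ERD against BLD. The centred mean of the neuron list ran from -0.56 to 0.15 in ERD, from -0.23 to 0.37 in BLD and from -0.20 to 0.26 in STD. The part of these shifts in the members' values was not tested. In a whole hemibrain, fewer cells of a type and less RNA per cell cannot be told apart. ERD also had the lowest mean number of spots well above background, 24692, and the part of array depth in the marker shifts was not tested.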

How the data were processed

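Hemibrain RNA (Cy5) and a reference pool (Cy3) were read on 15 arrays. Scanner files deposited for each array give intensities as the median pixel of spot and of background. They also give log10 ratios of Cy5 over Cy3 that the authors' software had corrected for background and dye. The software was Agilent Feature Extraction, version 11.5.1.1 by the file headers and 10.7 per the submitters' processing notes. Groups came from the diet labels, and array numbers within a diet are only names.

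Median intensities underwent normexp correction (offset 50) and, per array, loess normalization in limma 3.58.1 (R 4.3.3), without outlier spots (0.574%). Spots of a probe were averaged. A probe needed 8 values and a Cy5 signal well above background on 5 of the 15 arrays to be tested. One limma model gave 3 diet comparisons and an F test with 12 residual degrees of freedom, 2-sided, and probes with a Benjamini-Hochberg adjusted p under 0.05 passed. The offset shrinks changes of dim probes, and also folds between hemibrain and reference where a channel is dim.

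Genes were named through RefSeq identifiers, and 27656 of 55681 probes had a symbol. The headers name an older build than the reference used here, so no coordinates are given. Named were all members, the 5 pathway genes of lowest F test p and the 3 most correlated genes per member. Members and lists were chosen with earlier results of these data known. Lists used the brightest probe per gene in Cy5. Alternatives were the deposited log ratios, an offset of 1, Cy5 alone, 3 changes of filter or outlier spots, 1 probe per gene, slide or scan day as a block, and arrays left out. The tests were checked on simulated data. Further software was the R package data.table (1.17.8), Python 3.11.15, pandas 2.3.3 and matplotlib 3.10.9. Methylation and microRNA data were not analysed here, and 1 of the 5 pathway genes is not reported here.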

Additional observations from a re-analysis of the deposited data

Results flagged for a closer look

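Of 45 groups of 5 arrays (15 probes in 3 diets), 4 held an array far from the other 4, by Dixon's 95% critical value of 0.71 for the gap over the range, and chance gives about 1 in 20. Mat2a A_51_P500344 was at -0.50 on STD 5, with the other STD arrays at 0.32 to 0.55. Mtr A_55_P1997866 was at 0.99 on ERD 4, with the other ERD arrays at -0.39 to -0.13, and ERD 4 was the one ERD array of the later scan day. Mtr A_55_P2152962 was at -0.42 on BLD 2, with the others at -0.75 to -0.66. Shmt1 A_55_P2186584 was at -0.39 on ERD 5, with the others at -0.17 to -0.10, where Cy5 was not well above background on ERD 5.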

How the results depend on the processing

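For the members, 0 probes passed the threshold in all 3 comparisons under every alternative run, and the lowest adjusted p of a member probe was 0.0858. Counts over all probes depended on the setting. The 44 probes of ERD against STD became 68 with Cy5 alone, 8 with scan day as a block, 1 with slide as a block, 0 without the 3 least correlated arrays, and 2 (without STD 2) to 198 (without ERD 3) with 1 array left out. The 2 of BLD against STD became 1 on the deposited log ratios, 1 with an offset of 1, 5 with no filter, 1 with scan day and 0 with slide as a block, and 1 to 12 (without STD 1) with 1 array left out. The 0 of ERD against BLD became 1 with slide as a block and 0 to 1 (without STD 3). The 12 of the F test became 1 (deposited), 1 (offset of 1), 5 (Cy5 alone), 3 (scan day), 1 (slide), 1 (without the 3 arrays) and 1 (without STD 5) to 23 (without BLD 3). The cause was not tested.

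Some member changes turned sign, and none of them had passed. On the deposited log ratios Mtr A_55_P2152962 had -0.38, -0.12 and -0.26 in ERD against STD, BLD against STD and ERD against BLD, and Cbs -0.11 and 0.15 in the last 2. With an offset of 1 they were -0.04 and -0.04 for that Mtr probe against STD, -0.01 for Ahcyl1 A_51_P296328 in BLD against STD and 0.06 for Cbs in ERD against BLD. With Cy5 alone they were -0.05 and -0.06 for that Mtr probe, 0.06 for Ahcyl1 A_51_P206251 in ERD against STD, -0.02 for A_51_P296328 in BLD against STD, and 0.04 (Shmt2), 0.01 (Ahcyl2 A_52_P162509) and 0.08 (Cbs) in ERD against BLD. With slide as a block they were -0.07 (Cbs, ERD against STD), -0.09 (Mtr A_55_P2152962) and -0.13 (Ahcyl1 A_51_P296328) in BLD against STD, and 0.00 (Mtr A_55_P1997866), 0.04 (Shmt2) and 0.02 (A_51_P296328) in ERD against BLD. Blocking on scan day gave -0.05 (Mtr A_55_P2152962, BLD against STD) and 0.05 (Shmt2, ERD against BLD). Without the 3 least correlated arrays they were -0.05 (Mtr A_55_P1997866), 0.04 (Ahcyl1 A_51_P206251) and 0.01 (Ahcyl2 A_55_P2266977) in ERD against STD and 0.02 (Ahcyl2 A_52_P162509) in BLD against STD.

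Leaving out 1 array gave, in ERD against STD, -0.22 to 0.11 (Ahcyl1 A_51_P206251), -0.13 to 0.00 (A_51_P296328), -0.01 to 0.34 (Mtr A_55_P1997866) and -0.02 to 0.15 (Cbs). In BLD against STD it gave -0.05 to 0.08 (A_51_P296328), -0.03 to 0.05 (Mtr A_55_P2152962) and -0.13 to 0.12 (Ahcyl2 A_52_P162509). In ERD against BLD it gave -0.18 to 0.05 (Shmt2), -0.30 to 0.01 (Mat2a A_55_P2095047) and -0.02 to 0.17 (Mat2a A_51_P500344). The Mat2a probe gap, an alternative set chosen after seeing the data, was 0.93 with Cy5 alone (adjusted p = 0.0476), 1.89 on the deposited log ratios, 1.58 with an offset of 1 and 0.62 to 1.07 with 1 array left out in ERD against STD. No paired analysis was possible because no label pairs the animals of different diets by number, and slide and scan day were the only blocks fitted. Signals near background limit Shmt1 and Ahcy, which had Cy5 above background on at most 4 of 15 arrays.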
